A study of Homo sapiens with 18 samples.

Results

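C/D box snoRNAs were described in poly-A RNA of HEK293T, an established human line of embryonic kidney origin that takes up plasmids readily. The members were the rows of the expression table whose symbol begins with SNORD and a digit and whose mean over the 18 libraries lay at least 0.5 above the lowest value of the table on its log2 scale. This rule kept 99 of 187 SNORD rows, out of 37096 named genes. The values that chose them are levels averaged over all libraries, treated ones included, so a row that is high in 1 group only could pass through that group. Over the 12 libraries other than methionase at 24 h, 16 members lay below the threshold, among them SNORD75, SNORD14C, SNORD14D, SNORD14E, SNORD15A, SNORD73B and SNORD134. Of these 7, only SNORD14E lay above it in the 6 libraries at 12 h, which include methionase libraries. The methionase differences of all 7 at 24 h are given as a description. Just inside the threshold lay SNORD75, SNORD97 and SNORD2, at 0.504, 0.562 and 0.570 log2 above the lowest value. Just outside lay SNORD157, SNORD1A and SNORD133, at 0.498, 0.492 and 0.490.

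The tested cells carried methionaseNLS, a methionase with a nuclear localisation signal, and their controls carried the empty pLEX vector; the genotype label was WT throughout. Cells were grown in high glucose medium with serum. Methionase and empty vector cells were transfected for 24 h and given Vps34-IN1, transfected for 24 h in DMSO, or transfected for 12 h in DMSO, giving 6 groups of 3 libraries. Vps34-IN1, an inhibitor of the lipid kinase VPS34, was used at 5 µM for 12 h, and DMSO was its vehicle. The times 24 h and 12 h below are times of transfection. No group received an inactive methionase or another foreign protein, and the labels do not say how long DMSO was given. Whether replicates are separate cultures is not labelled, and the p-values refer to the variation among these libraries, part or all of which could be technical.

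C/D box snoRNAs are short RNAs of the nucleolus that guide ribose methylation of other RNAs, mainly ribosomal RNA. Each pairs with its target next to a D box, and the methyltransferase fibrillarin, held with NOP56, NOP58 and SNU13, places the methyl group, taken from S-adenosylmethionine, the activated form of methionine. Most human C/D snoRNAs are cut out of introns of host genes. Some of these hosts are long non-coding RNAs such as GAS5 and SNHG1, and others encode ribosomal proteins. A mature snoRNA carries no poly-A tail, so the few reads seen here are those that passed a poly-A selection. Reads from a mature snoRNA, from a tailed precursor and from an unspliced host transcript cannot be told apart in a table with 1 value per gene. Of the members, 69 overlap an annotated exon of their host, 41 of them only in transcripts annotated as retained introns, and 29 lie wholly outside host exons.

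Total reads ranged from 18278586 to 20825232 per library. Reads below are normalised reads, that is, recovered counts divided by the library's size factor. The members took few of them: the median member had 9, 9 and 13 raw reads in the empty vector libraries at 24 h in DMSO. The HEK293T marker genes NEFL, NEFM, PAX2 and EYA1 had medians between 142 and 10470 normalised reads, while the T cell gene CD3E and the fibroblast gene COL1A2 had medians of 0. The fibroblast gene DCN and the hepatocyte genes ALB and APOA1 had medians of 0.464, 5.23 and 3.72, with ALB at up to 20.3. One library stood apart: replicate 2 of methionase at 24 h in DMSO held the highest value of its group for 93 of the 99 members.

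The copies of SNORD14 in HSPA8 and RPS13 are related snoRNAs in different hosts whose values are set side by side, and their sequences are given with the C box core TGATGA and the D box CTGA in capitals. All are from GENCODE release 29 on GRCh38, minus strand, 5′ to 3′ and written as DNA.
SNORD14C, HSPA8, chr11:123059335-123059422: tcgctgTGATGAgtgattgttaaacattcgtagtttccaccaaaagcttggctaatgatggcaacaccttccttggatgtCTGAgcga
SNORD14D, HSPA8, chr11:123058909-123058995: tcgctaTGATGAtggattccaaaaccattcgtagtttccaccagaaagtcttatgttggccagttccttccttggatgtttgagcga
SNORD14E, HSPA8, chr11:123058077-123058161: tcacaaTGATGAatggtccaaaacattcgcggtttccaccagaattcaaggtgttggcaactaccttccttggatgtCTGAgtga
SNORD14A, RPS13, chr11:17074654-17074744: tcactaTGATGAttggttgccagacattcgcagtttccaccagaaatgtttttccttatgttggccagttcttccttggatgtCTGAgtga
SNORD14B, RPS13, chr11:17075779-17075868: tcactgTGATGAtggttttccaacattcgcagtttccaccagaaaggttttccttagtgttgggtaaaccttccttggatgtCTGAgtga
The 5 copies were 75.8% to 86.0% identical in pairs, and the longest run held by all of them was cttccttggatgt, the 13 bases next to the D box. SNORD14D has no CTGA in its last 20 bases.

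Further members whose values in every library are given below are shown next, 1 from each of 4 hosts. SNORD80 is read here from a GAS5 transcript at its RefSeq position, and the others are GENCODE entries, all on the minus strand of GRCh38.
SNORD80, GAS5, chr1:173864833-173864903: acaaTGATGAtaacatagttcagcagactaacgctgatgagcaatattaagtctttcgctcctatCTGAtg
SNORD28, SNHG1, chr11:62854621-62854695: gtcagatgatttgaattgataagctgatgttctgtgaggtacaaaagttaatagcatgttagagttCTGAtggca
SNORD58C, RPL17, chr18:49489245-49489308: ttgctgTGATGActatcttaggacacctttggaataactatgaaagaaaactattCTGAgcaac
SNORD5, TAF1D, chr11:93733228-93733300: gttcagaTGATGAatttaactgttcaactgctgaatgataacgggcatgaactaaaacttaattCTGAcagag
A GENCODE sequence was found for 79 members. The 6 letters TGATGA stood in the first 20 bases of 50 of them (63.3%) and CTGA in the last 20 bases of 77 (97.5%), searched on the RNA strand only. Among the 149 SNORA entries of the same release, which belong to the other snoRNA class (H/ACA), these letters stood in the same windows in 1 (0.671%) and 13 (8.72%).

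The question of the first comparison was how a nuclear methionase changes the RNA of these cells after 24 h. Reads on the members summed to 4703, 8766 and 5093 normalised reads in methionase cells in DMSO, against 1287, 1249 and 1701 in empty vector cells. Every methionase library lay above every control library. The mean of methionase cells was 4.38 times that of the controls, and 3.47 times without methionase replicate 2. As a share of all reads the members took 0.0310% ± 0.0108 in methionase cells and 0.00743% ± 0.00138 in empty vector cells (SD, n = 3 each). More cells with these RNAs and more RNA per cell cannot be told apart in such bulk libraries.

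**Figure D1:**
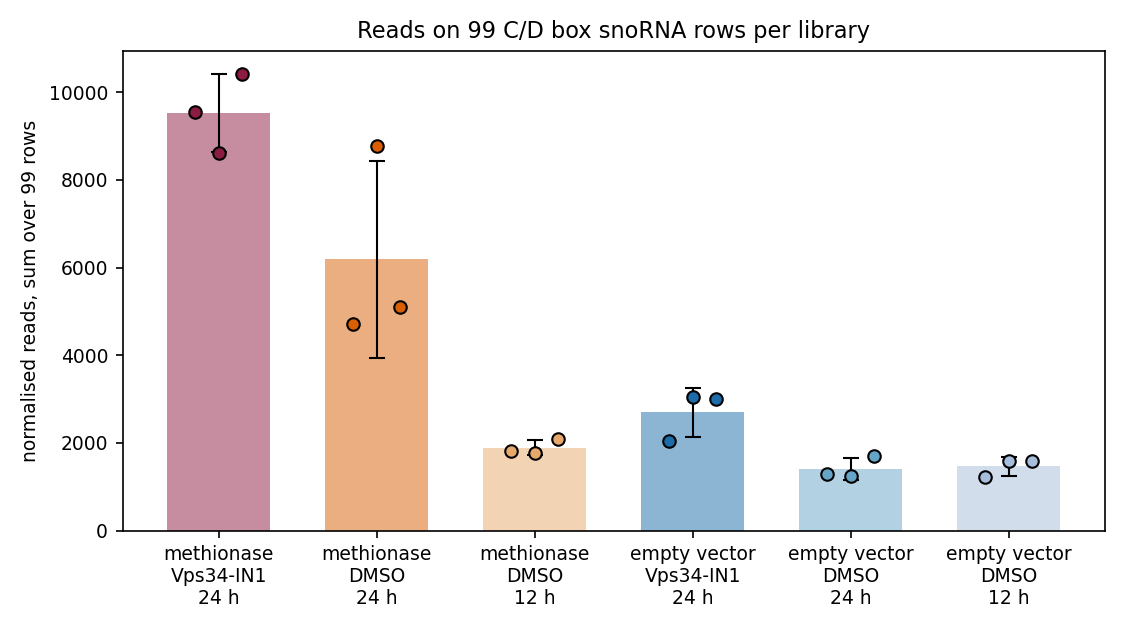
Sum of normalised reads over the 99 C/D box snoRNA rows in each library (points), with the mean (bar) and SD (line) of each group of 3. The methionase groups at 24 h sit between 4703 and 10410, above all other libraries, which lie between 1225 and 3041.

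By limma on the deposited log2 values, with p-values adjusted over all 17755 tested genes and a call at an adjusted p below 0.05, 85 of the 99 members were higher and 0 were lower. Of all tested genes 39.2% were called, 18.1% higher and 21.1% lower. At an unadjusted p below 0.05, 89 members were higher and none was lower, where 47.3% of all tested genes passed in either direction, and limma voom on the recovered reads also called 85 higher and 0 lower. The median difference of the members was 0.65 log2, against 0.01 for all tested genes, and single members ranged from -0.15 to 1.83. These differences keep the deposited transformed scale, where rows with few reads move less than their reads do. On the read scale of voom the median was 2.19 log2. The methionase libraries lay wholly above the empty vector libraries for 89 members, and wholly below for 0. Of all tested genes 23% lay wholly above and 25.7% wholly below. Since the level in treated libraries helped to choose the members, the count was repeated for the SNORD rows chosen by their mean over the 6 libraries at 12 h. Those libraries are not compared here and enter the fit only through its estimate of the spread. Of these 77 rows, 63 were higher and 0 lower, with a median of 0.68 and 17.2% of all genes so chosen called higher. Of all 187 SNORD rows, fitted with no filter on low values, 94 were higher, against 8.19% of all genes.

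GAS5, a growth arrest transcript whose introns hold more members than any other host, carried 10, and all 10 rose in methionase cells. SNORD80 had the most reads of all members, both in total and per length. It had 418, 649.7 and 460.0 normalised reads in methionase cells in DMSO, against 120.2, 126.5 and 151 in empty vector cells. The groups did not overlap, and the log2 difference was 1.48 ± 0.12 (SE, limma, adjusted p = 1.74e-09). SNORD74 had 163, 254 and 122 normalised reads in methionase cells, against 12.8, 11.2 and 23.1 in empty vector cells. Its difference of 1.70 ± 0.13 was the largest in GAS5 on the transformed scale (adjusted p = 5.26e-10). SNORD47 rose by 1.38 ± 0.16 (adjusted p = 4.00e-07), with means of 251 ± 87.8 in methionase cells and 52.8 ± 12.3 in empty vector cells (SD, n = 3 each). Along the transcript from SNORD74 to SNORD81, the differences on the transformed scale were uneven between neighbours. SNORD75, the second in order, had a difference of 0.67 ± 0.09, and it passed the threshold on level only through methionase at 24 h. Its means were 17.2 normalised reads in methionase cells and 0.921 in empty vector cells, a larger factor than that of SNORD74. The controls held 3 raw reads of it, so the order in reads is loosely set. SNORD76, the third, rose by 1.33 ± 0.20. SNORD77 rose least, by 0.42 ± 0.11.

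SNHG1, a non-coding host, carried 7 members, and all 7 rose. SNORD28 had 195, 389 and 208 normalised reads in methionase cells, against 19.1, 32.6 and 44.3 in empty vector cells. Its lowest methionase library was above the highest control library, and its log2 difference was 1.76 ± 0.16 (adjusted p = 1.01e-08). SNORD22, a member known for a role in 18S rRNA processing rather than as a guide, had 102, 249 and 140.1 normalised reads in methionase cells, against 35.5, 44.6 and 57.2 in empty vector cells, a difference of 1.01 ± 0.16 (adjusted p = 2.36e-05). SNORD31 rose least of the 7, by 0.59 ± 0.14.

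The 3 members in HSPA8, which encodes the constitutive heat shock protein HSC70, are copies of SNORD14 (U14), which acts in pre-rRNA processing. SNORD14E had 80.2, 234 and 85.3 normalised reads in methionase cells, against 0.911, 2.79 and 5.54 in empty vector cells. SNORD14D had 70.6, 220.1 and 85.3 in methionase cells, against 2.73, 2.79 and 3.69 in empty vector cells. SNORD14C had 39.6, 133 and 55.9 in methionase cells, against 3.64, 0 and 2.77 in empty vector cells. None of the 3 overlapped between the groups, and in each the second methionase library was the highest. The log2 differences, as a description, were 1.83 ± 0.29 for SNORD14E, 1.75 ± 0.25 for SNORD14D and 1.46 ± 0.23 for SNORD14C. All 3 passed the threshold on level over the 18 libraries only through methionase at 24 h. The controls held 10, 10 and 7 raw reads of these members over 3 libraries, so the size of the fold is loosely set. Summed, the 3 rows had 40.4 times the normalised reads of the controls in methionase cells, and 25.1 times without methionase replicate 2. Their relatives in the ribosomal protein gene RPS13 also rose; whether the copies differ in their change was not tested. SNORD14A had 72.7, 151 and 75.1 normalised reads in methionase cells, against 27.3, 30.7 and 25.8 in empty vector cells (0.85 ± 0.13, adjusted p = 9.78e-06). SNORD14B rose by 0.95 ± 0.15 (adjusted p = 3.13e-05). The copies share the stretch next to the D box, and how reads that match more than 1 copy were counted is not given in the sources used here.

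Ribosomal protein genes hosted 35 members, of which 34 rose, with a median of 0.69 log2. SNORD58C in RPL17 had 137, 259 and 138 normalised reads in methionase cells, against 16.4, 13.95 and 29.5 in empty vector cells (1.58 ± 0.14, adjusted p = 7.00e-09). SNORD102 in RPL21 averaged 133 ± 55.9 in methionase cells and 20.6 ± 6.34 in empty vector cells (SD, n = 3 each), a difference of 1.27 ± 0.15 (adjusted p = 3.16e-07). The 4 members in each of RPL7A, RPL23A and RPL3 all rose, with medians of 0.80, 0.59 and 0.54. Among them SNORD36B and SNORD4B lay below the threshold on level over the 12 libraries other than methionase at 24 h. The member with no call in this class was SNORD16, in RPL4. Non-coding hosts carried 27 members, of which 25 rose, with a median of 0.89. Other protein-coding hosts carried 35 members, of which 24 rose, with a median of 0.43. SNORD3A is the U3 snoRNA, which is transcribed as a gene of its own and acts in cleavage of pre-rRNA rather than as a methylation guide. It had 19.3, 70.2 and 18.3 normalised reads in methionase cells, against 7.28, 11.2 and 8.31 in empty vector cells (0.55 ± 0.20, adjusted p = 0.0349). The row of SNORD13, another atypical C/D snoRNA, lay below the threshold.

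**Figure D2:**
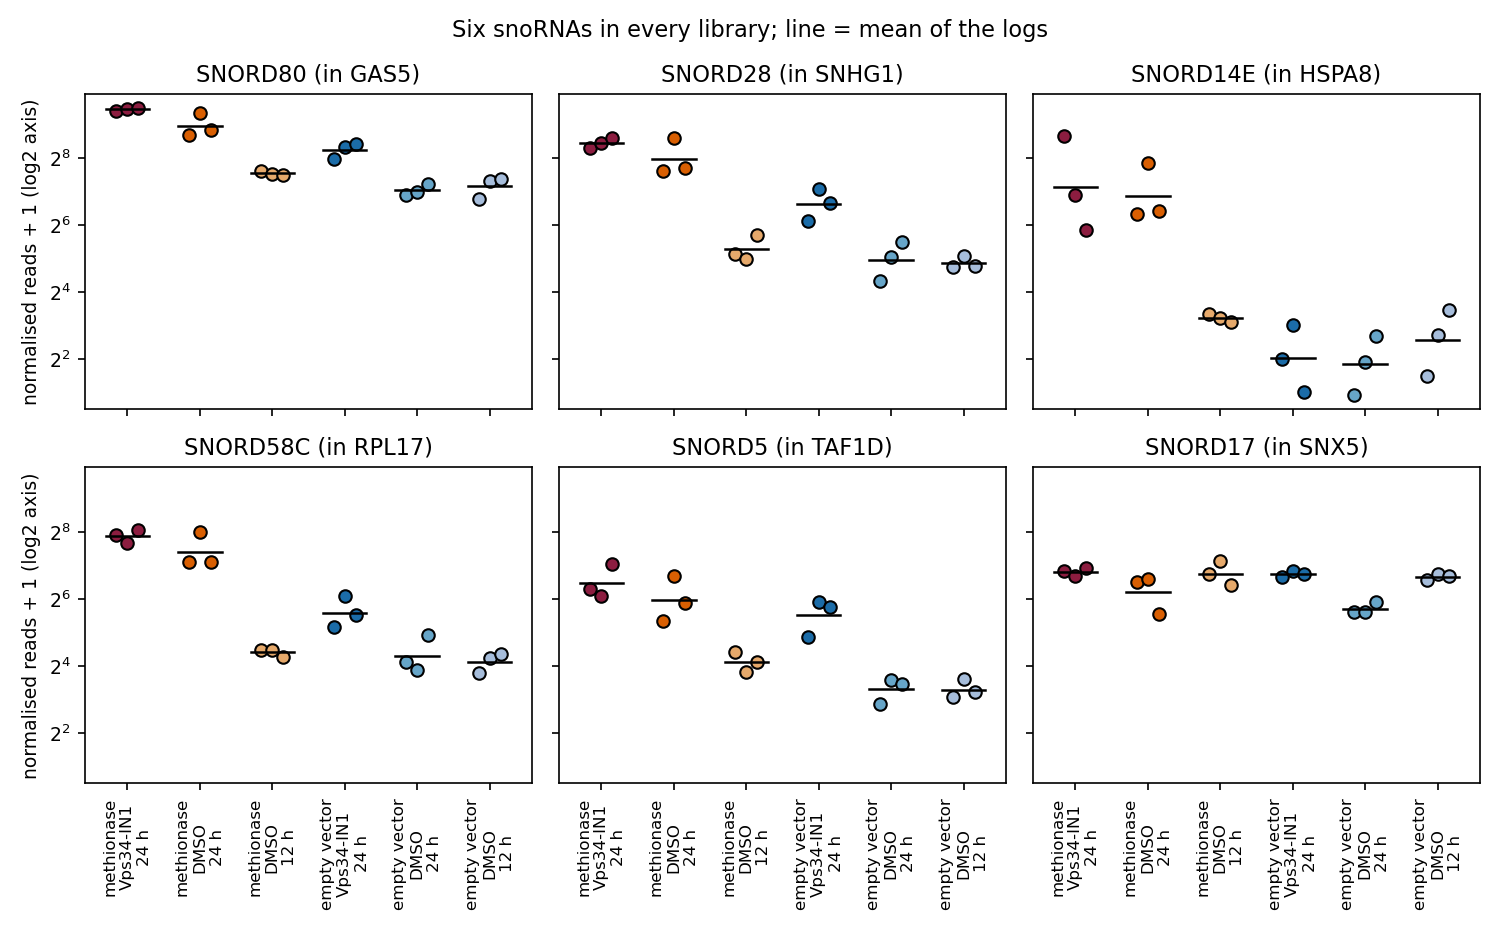
Normalised reads plus 1, on a log2 axis, of 6 members in every library (points), with the mean of the logs (line), for the 6 groups named under the panels. SNORD80, SNORD28, SNORD58C and SNORD5 are higher in both methionase groups at 24 h than in empty vector cells in DMSO and also higher with Vps34-IN1 in empty vector cells. SNORD14E is at 57.2 or above in the methionase libraries at 24 h and at 7.15 or below in the empty vector libraries at 24 h.

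Of the 99 members 14 were not called in DMSO at 24 h. SNORD17, a long C/D snoRNA in SNX5, was the sixth most abundant member by reads. It had 89.8, 96.8 and 46.7 normalised reads in methionase cells, against 48.3, 48.4 and 60.0 in empty vector cells, and the groups overlapped (0.28 ± 0.12, adjusted p = 0.0651). SNORD49A in SNHG29 had 6.42, 14.9 and 13.2 in methionase cells, against 12.8, 15.8 and 21.2 in empty vector cells (-0.15 ± 0.10, adjusted p = 0.267). SNORD110 in NOP56 averaged 33.5 ± 3.34 in methionase cells and 26.1 ± 11.1 in empty vector cells (SD, n = 3 each; 0.15 ± 0.09, adjusted p = 0.182). A p that misses the threshold does not show that these levels were equal.

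The second comparison put methionase cells against empty vector cells when both had received Vps34-IN1. Its groups share no library with those of the first, but both take their spread from the same fit over all 18 libraries. Members summed to 9549, 8615 and 10410 normalised reads in methionase cells and to 2053, 3041 and 3012 in empty vector cells, a ratio of means of 3.53. Limma called 84 members higher and 0 lower, where 39.5% of all tested genes were called and 17.3% called higher. The methionase libraries lay wholly above the empty vector libraries for 83 members, against 20.9% of all tested genes. At an unadjusted p below 0.05, 86 were higher and none lower, where 47.6% of all tested genes passed in either direction, and voom called 84 higher and 0 lower. The median was 0.78 log2 against 0.01 for all tested genes. Of the 85 members called in DMSO and the 84 called under the drug, 77 were shared, which is 90.6% of the first list and 91.7% of the second. With 85 and 84 of 99 called, most calls had to be shared in any case, so no conclusion is drawn from these percentages. The 99 also include the 16 members that lay below the threshold without the methionase libraries at 24 h. Across the 99 members the differences of the 2 comparisons had a Pearson r of 0.85 and a Spearman rho of 0.84, given as a description, since members of 1 host share its transcript. Chosen by their 12 h level, 65 of 77 SNORD rows were higher and 0 lower, against 16.8% of all genes so chosen. With no filter, 101 of all 187 SNORD rows were higher, against 8.17% of all genes.

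SNORD14E again led by size, with 410, 119.9 and 57.2 normalised reads in methionase cells with the drug, against 3.07, 7.15 and 1.04 in empty vector cells with the drug (2.02 ± 0.29, as a description). The host HSPA8 had 28330, 21300 and 16750 normalised reads in the same 3 libraries, in the same order, against 11050, 11890 and 12400 in empty vector cells. SNORD74 had 384, 352 and 351 in methionase cells, against 32.8, 51.1 and 43.5 in empty vector cells (1.98 ± 0.13, adjusted p = 1.22e-10). SNORD101, in the ribosomal protein gene RPS12, had 246, 158 and 202 in methionase cells, against 13.3, 33.7 and 34.2 in empty vector cells (1.60 ± 0.17, adjusted p = 1.01e-07). SNORD76 in GAS5 rose by 1.63 ± 0.20 and SNORD54 in RPS20 by 1.51 ± 0.14 (adjusted p = 8.71e-07 and 2.83e-08). SNORD15A in RPS3 differed by 1.42 ± 0.11, as a description. Of the 35 members in ribosomal protein genes 34 rose, with a median of 0.97. Only 7 members were called in neither setting: SNORD125, SNORD17, SNORD110, SNORD88B, SNORD16, SNORD63B and SNORD70B.

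Vps34-IN1 alone was compared with DMSO in empty vector cells at 24 h. Its DMSO libraries are the controls of the first comparison, so the values of the comparisons are given side by side only. Their sum was 2053, 3041 and 3012 normalised reads with the drug, against 1287, 1249 and 1701 in DMSO, a ratio of means of 1.91 with no overlap. Limma called 35 members higher and 0 lower. Of all tested genes 40.1% were called, 20.2% higher and 19.9% lower. The drug libraries lay wholly above the DMSO libraries for 42 members and wholly below for 2, against 26.6% and 25.8% of all tested genes. With no filter, 30 of all 187 SNORD rows were higher, against 8.8% of all genes. At an unadjusted p below 0.05, 44 were higher and none lower, where 48.3% of all tested genes passed in either direction, and voom called 35 higher and 0 lower. The median was 0.19 log2 against 0.00 for all tested genes. The count was 22 without drug replicate 2.

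The members that rose with the drug alone lay in 22 hosts, apart from SNORD10. All 4 in GNL3, which encodes the nucleolar protein nucleostemin, were called, with a median of 0.48, and SNORD19 among them had 25.6, 33.7 and 45.6 normalised reads with the drug, against 7.28, 2.79 and 7.38 in DMSO (0.73 ± 0.12, adjusted p = 4.42e-05). In GAS5, 4 of 10 were called. On the transformed scale SNORD80 had the largest difference of all members (0.88 ± 0.12, adjusted p = 2.57e-06). It had 253, 323 and 347 normalised reads with the drug, against 120.2, 126.5 and 151 in DMSO. Members with fewer reads, such as SNORD19 and SNORD5, rose by a larger factor in reads. SNORD74, SNORD79 and SNORD47 were called too, whereas SNORD81, the last in the same transcript, differed by 0.04 ± 0.09. In SNHG1, 4 of 7 were called, among them SNORD28 (0.83 ± 0.16, adjusted p = 0.000202) and SNORD26 (0.67 ± 0.18, adjusted p = 0.00435). SNORD5 in TAF1D, a gene of an RNA polymerase I factor, had 28.7, 60.3 and 53.9 normalised reads with the drug, against 6.37, 11.2 and 10.2 in DMSO (0.77 ± 0.15, adjusted p = 0.000201). SNORD143 and SNORD144, which lie in THAP9-AS1 and also in at least 1 other gene, rose by 0.78 ± 0.15 and 0.68 ± 0.09 (adjusted p = 0.000138 and 2.11e-06). SNORD102 in RPL21 rose by 0.69 ± 0.15 (adjusted p = 0.00059). In ribosomal protein genes 8 of 35 were called, with a median of 0.16.

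None of the HSPA8 members was called with the drug alone. SNORD14E had 3.07, 7.15 and 1.04 normalised reads with the drug, against 0.911, 2.79 and 5.54 in DMSO, and the groups overlapped (0.03 ± 0.29, adjusted p = 0.94). SNORD14D and SNORD14C differed by 0.05 ± 0.25 and 0.11 ± 0.23. Their host HSPA8 fell by 0.58 ± 0.14 log2 with the drug (adjusted p = 0.00148). A direct comparison of methionase in DMSO with the drug in empty vector cells was added after the data were seen. It gave 71 members higher with methionase and 1 lower, where 36.2% of all tested genes were called, 16.3% higher and 19.9% lower. The libraries did not overlap for 69 members higher and 1 lower, against 20.1% and 24.2% of all tested genes, and with no filter 69 of all 187 SNORD rows were higher, against 7.18%. As a description, SNORD14E, SNORD14D and SNORD14C were 1.79 ± 0.29, 1.70 ± 0.25 and 1.35 ± 0.23 higher with methionase. The member that was lower was SNORD17 (-0.30 ± 0.12, adjusted p = 0.0476). SNORD17 had risen with the drug alone, with 100.4, 115 and 108 normalised reads with the drug, against 48.3, 48.4 and 60.0 in DMSO (0.58 ± 0.12, adjusted p = 0.000372).

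**Figure D3:**
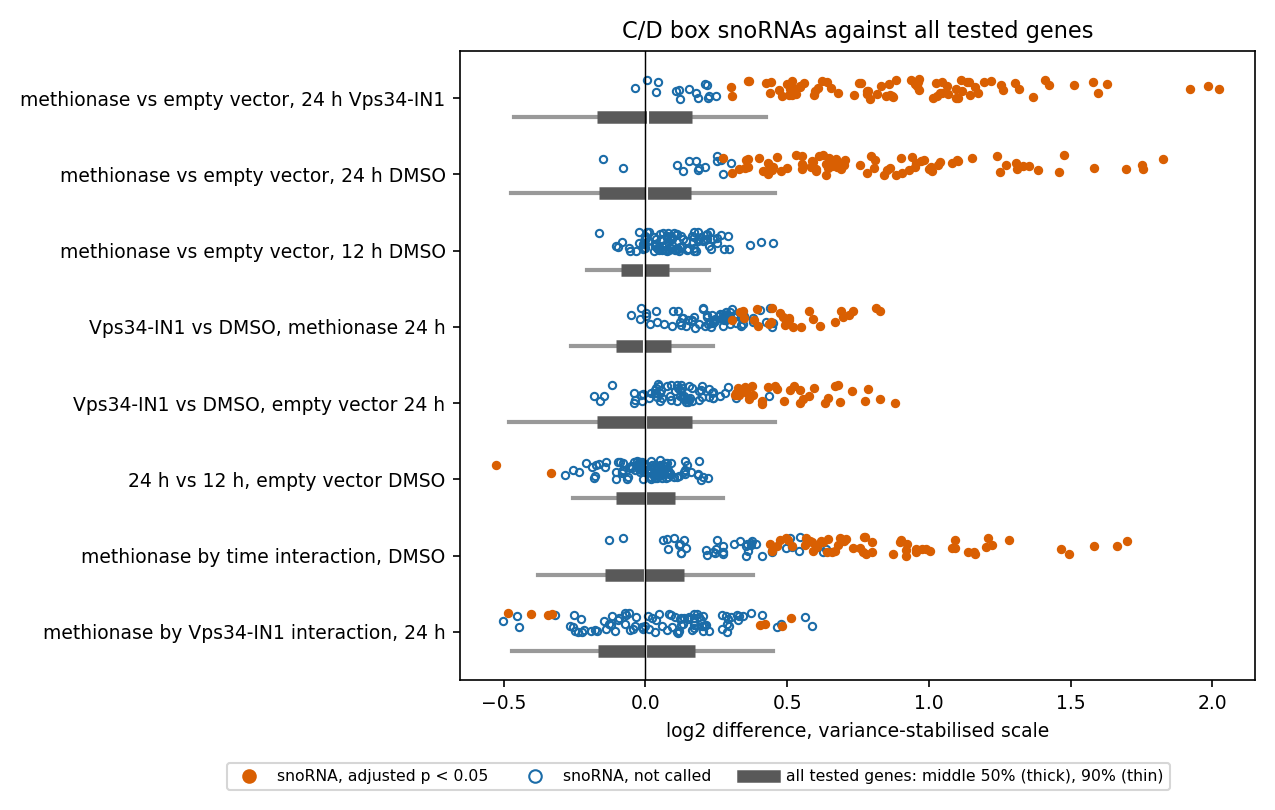
Log2 differences of the 99 members (points; filled where limma's adjusted p is below 0.05) in 8 comparisons, above the middle 50% and 90% of all 17755 tested genes (grey bars, median in white). Members sit to the right of most genes with methionase at 24 h, with medians of 0.78 with Vps34-IN1 and 0.65 in DMSO, and near 0 for 24 h against 12 h.

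Vps34-IN1 was also compared with DMSO in methionase cells at 24 h. Members summed to 9549, 8615 and 10410 normalised reads with the drug, against 4703, 8766 and 5093 in DMSO, and the groups overlapped through DMSO replicate 2. Limma called 27 members higher and 0 lower, where 7.93% of all tested genes were called, 2.95% higher and 4.98% lower. The drug libraries lay wholly above the DMSO libraries for 33 members, against 8.55% of all tested genes, and with no filter 20 of all 187 SNORD rows were higher, against 1.06%. At an unadjusted p below 0.05, 65 were higher and none lower, where 23.4% of all tested genes passed in either direction, and voom called 24 higher. The count depends on single DMSO libraries: it was 12 without replicate 1, 55 without replicate 2 and 11 without replicate 3, and 8 when only the groups compared were fitted. SNORD101 had the largest difference on the transformed scale, with 246, 158 and 202 normalised reads with the drug, against 64.2, 153 and 50.8 in DMSO (0.83 ± 0.17, adjusted p = 0.00284). SNORD74 had 384, 352 and 351 with the drug, against 163, 254 and 122 in DMSO (0.81 ± 0.13, adjusted p = 0.000212). SNORD21 in RPL5 rose by 0.72 ± 0.13 and SNORD54 in RPS20 by 0.69 ± 0.14. SNORD10, which lies in a gene not used here as a host, rose by 0.67 ± 0.12. SNORD76 also had a call (0.73 ± 0.20), which was lost in 5 of the alternatives tried. SNORD73B, which passed the threshold on level only through methionase at 24 h, differed by 0.70 ± 0.16, as a description. SNORD45A in RABGGTB rose by 0.62 ± 0.14 (adjusted p = 0.00582).

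At 12 h in DMSO, no member was called between methionase cells and empty vector cells. The sums were 1809, 1774 and 2082 normalised reads in methionase cells and 1225, 1589 and 1585 in empty vector cells, a ratio of means of 1.29 with no overlap. Limma called 0 members, where 2.17% of all tested genes were called. At an unadjusted p below 0.05, 10 were higher and none lower, where 17.5% of all tested genes passed in either direction, voom called 0, and the median was 0.09 log2. The methionase libraries lay wholly above the controls for 20 members and wholly below for 0, where 11.8% of all tested genes lay wholly above. The largest difference on the transformed scale was that of SNORD29 in SNHG1, with an average of 35.3 ± 6.12 normalised reads in methionase cells and 13.97 ± 3.67 in empty vector cells (SD, n = 3 each; 0.45 ± 0.16, adjusted p = 0.138). When only the 2 groups at 12 h were fitted, SNORD29, SNORD76 and SNORD143 were called.

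Time alone was compared in empty vector cells in DMSO. Sums were 1287, 1249 and 1701 normalised reads at 24 h and 1225, 1589 and 1585 at 12 h. Of 99 members 0 were higher at 24 h and 2 were lower, where 11.5% of all tested genes were called, 4.61% higher and 6.88% lower. The 24 h libraries lay wholly above the 12 h libraries for 5 members and wholly below for 7, against 15.7% and 20.4% of all tested genes. SNORD17 had 48.3, 48.4 and 60.0 normalised reads at 24 h, against 94.9, 108 and 103 at 12 h (-0.53 ± 0.12, adjusted p = 0.00553). SNORD62B in PRRC2B had 11.8, 13.02 and 14.8 at 24 h, against 28.8, 27.2 and 26.0 at 12 h (-0.33 ± 0.08, adjusted p = 0.0133). The groups did not overlap in either. The test of the methionase difference at 24 h against that at 12 h called 58 members with a larger difference at 24 h and 0 with a smaller one, where 11.7% of all tested genes were called, 5.33% with a larger and 6.33% with a smaller difference. With no filter, 49 of all 187 SNORD rows had a larger one, against 1.8% of all genes. Its median was 0.59 log2, and SNORD28 had 1.58 ± 0.23 (adjusted p = 6.72e-05). SNORD14E and SNORD14D had 1.70 ± 0.41 and 1.67 ± 0.35, as a description.

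Whether the drug changed the methionase difference was tested as an interaction at 24 h. It called 4 members with a larger difference under the drug and 4 with a smaller one, where 21.8% of all tested genes were called, 9.92% with a larger and 11.9% with a smaller difference. With no filter, 2 of all 187 SNORD rows had a larger one, against 3.7% of all genes. The members with a larger one were SNORD49A, SNORD83A, SNORD55 and SNORD42A. SNORD49A had 20.3, 24.2 and 29.1 normalised reads in methionase cells with the drug, against 7.17, 12.3 and 11.4 in empty vector cells with the drug. In DMSO its values were 6.42, 14.9 and 13.2 in methionase cells and 12.8, 15.8 and 21.2 in empty vector cells. The members with a smaller one were SNORD19, SNORD144, SNORD134 and SNORD62B. SNORD134 is named as a description, since it passed the threshold on level only through methionase at 24 h. For SNORD19 the drug groups were 39.5, 40.7 and 68.4 in methionase cells and 25.6, 33.7 and 45.6 in empty vector cells, which overlapped, while its DMSO groups, with 22.5, 45.7 and 32.5 in methionase cells and 7.28, 2.79 and 7.38 in empty vector cells, did not. The set of calls moved with the libraries and the scale. Without methionase DMSO replicate 2 there were 14 members, all with a larger difference, and voom gave 1 with a larger and 7 with a smaller one.

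**Figure D4:**
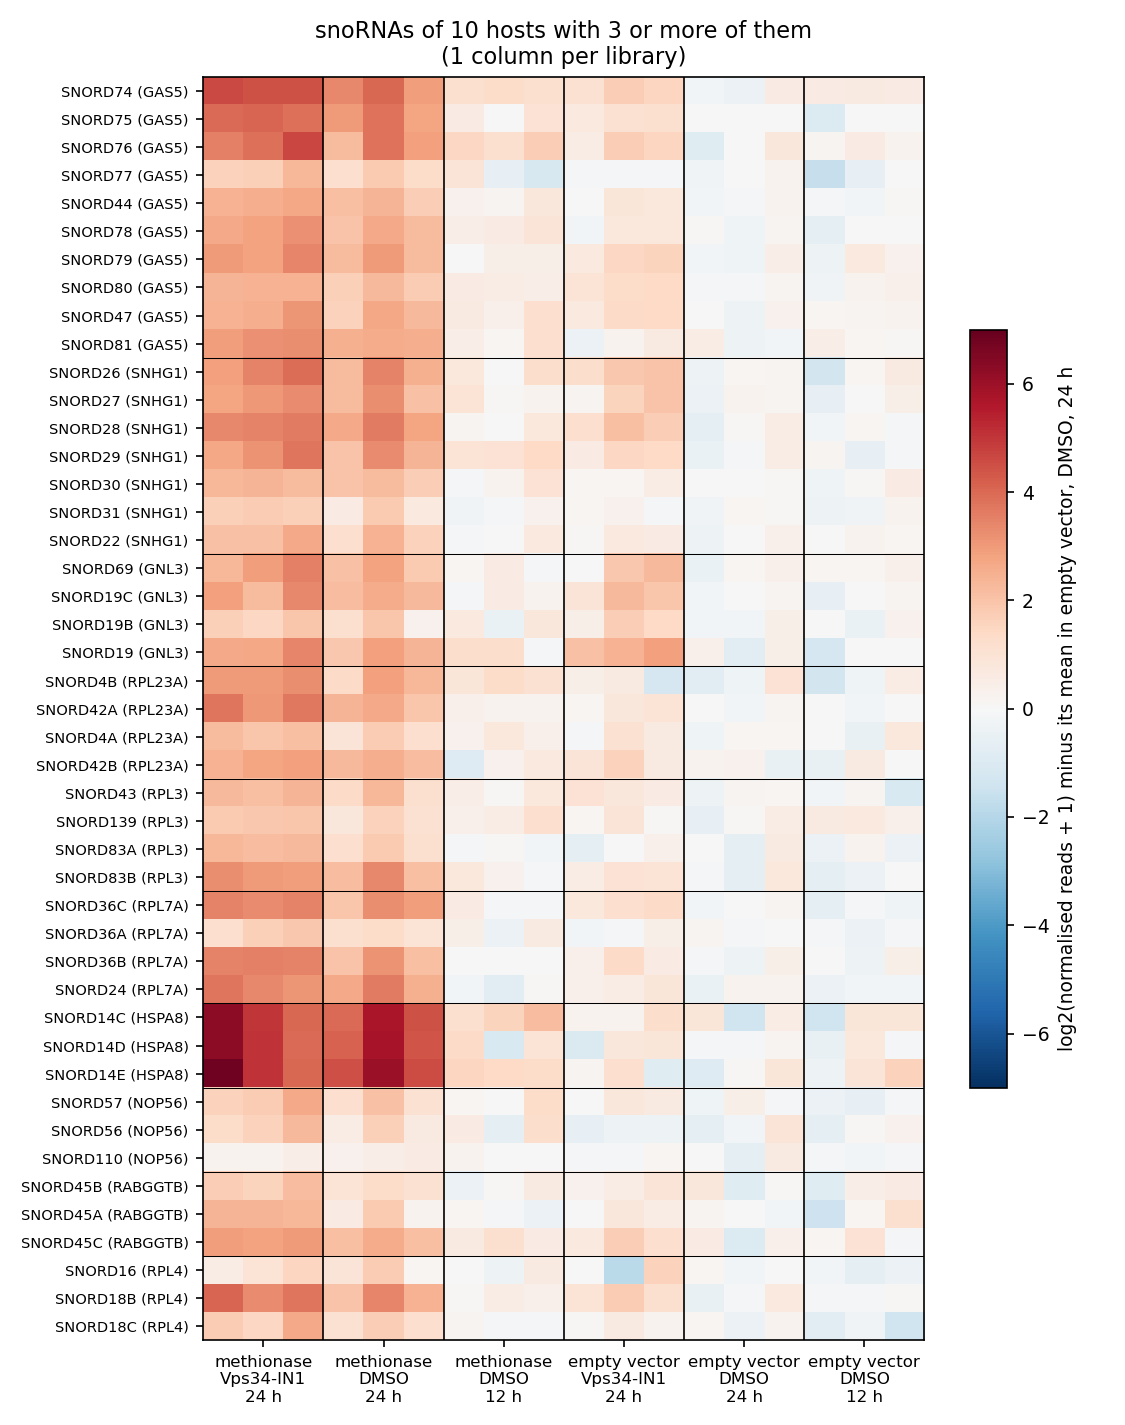
Members of 10 hosts that carry 3 or more of them (45 rows, grouped by host), 1 column per library: log2 of normalised reads plus 1, minus the row's mean in empty vector cells in DMSO at 24 h (red higher, blue lower). The methionase columns at 24 h are red in nearly every row, deepest in the HSPA8 rows, and SNORD110 stays pale.

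The members were set against their host genes, assigned by position. A host in the table was found for 97 members, in 49 genes. With methionase in DMSO, 24 hosts rose and 2 fell, with a median of 0.20 log2, where 18.1% of all tested genes rose and 21.1% fell. Of the 97 members 76 had a larger difference than their host. The median of member minus host was 0.36. Of the 83 called members with a host, 58 had a host that rose too, 24 a host with no call and 1 a host that fell. Under the drug, 16 hosts were higher with methionase and 3 lower, where 17.3% of all tested genes were higher and 22.2% lower. There 87 of 97 members exceeded their host, and the median of member minus host was 0.57. With Vps34-IN1 alone 23 hosts rose and 3 fell, where 20.2% of all tested genes rose and 19.9% fell. Here 36 of 97 members had a larger difference than their host, and the median of member minus host was -0.05. These counts and medians keep the transformed scale, where rows with few reads, such as most members, move less than their reads do. In summed normalised reads the drug alone gave 1.91 times DMSO for the members and 1.14 times for the hosts. With methionase the factors were 4.38 and 1.15 in DMSO, and 3.53 and 1.06 under the drug. These sums weigh the hosts unlike each other, so they do not set members against their own hosts. In empty vector cells in DMSO at 24 h, members had 58.1 reads per 1000 host reads in GAS5 and 0.805 in RPL3. Member and host differences had a Pearson r of 0.46 across the 97 pairs with methionase in DMSO and 0.37 with the drug alone, as a description, since several members share a host.

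SNHG1 had 7180, 10450 and 7921 normalised reads with methionase in DMSO and 8525, 10250 and 8949 with the drug in empty vector cells, against 3493, 3355 and 3624 in empty vector cells in DMSO. The host rose in both treatments, by 1.25 ± 0.11 and 1.38 ± 0.11 log2 (adjusted p = 4.52e-09 and 8.83e-10). Per 1000 reads of SNHG1, its 7 members had 102 ± 23.7 reads with methionase in DMSO and 38.6 ± 6.86 with the drug alone, against 53.3 ± 11.2 in empty vector cells in DMSO (SD, n = 3 each). For GAS5 the values were 141 ± 24.0 with methionase and 80.0 ± 11.3 with the drug, against 58.1 ± 17.6. For HSPA8 they were 12.9 ± 7.19 with methionase and 0.949 ± 0.369 with the drug, against 0.465 ± 0.157.

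**Figure D5:**
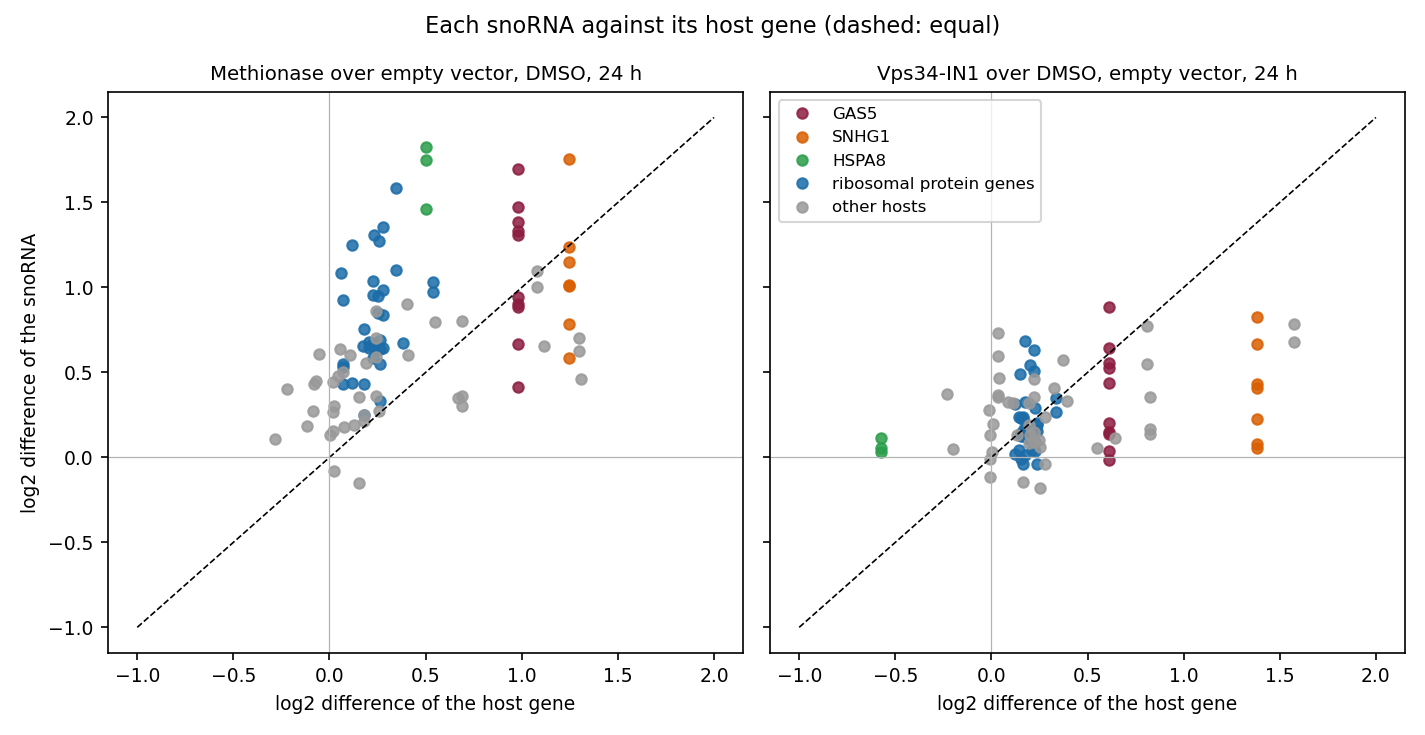
Log2 difference of each member (vertical) against that of its host gene (horizontal), for methionase over empty vector in DMSO at 24 h (left, 76 of 97 points above the dashed line of equality) and for Vps34-IN1 over DMSO in empty vector cells (right, 36 of 97 above). Members of GAS5, SNHG1, HSPA8 and the ribosomal protein genes have a colour each. Differences are on the transformed scale, where rows with few reads move less than their reads do.

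The genes of the proteins that hold C/D snoRNAs moved in both directions. Of the 4 core genes, 1 rose and 1 fell with methionase in DMSO, and their median was 0.00. FBL, which encodes fibrillarin, had 8244, 7670 and 7662 normalised reads in methionase cells, against 7728, 8769 and 7563 in empty vector cells (-0.03 ± 0.08, adjusted p = 0.817). SNU13, which binds the C and D boxes, rose by 0.32 ± 0.08 (adjusted p = 0.00213), and NOP58 fell by 0.28 ± 0.08 (adjusted p = 0.00472). NOP56 differed by 0.02 ± 0.07 in DMSO and rose by 0.28 ± 0.07 under the drug (adjusted p = 0.00316). Of 9 tested assembly factors 2 rose and 3 fell with methionase in DMSO, where 18.1% of all tested genes rose and 21.1% fell. NUFIP1, which bridges the assembling particle, fell by 0.37 ± 0.07 (adjusted p = 0.000148), and HSP90AA1, a chaperone of that assembly, rose by 0.38 ± 0.10 (adjusted p = 0.00549).

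Of 31 tested genes of snoRNA processing, export and decay, 5 rose and 8 fell with methionase in DMSO, and 6 rose and 9 fell under the drug. Among all tested genes 18.1% rose and 21.1% fell in DMSO, and 17.3% rose and 22.2% fell under the drug. The counts of this list lay near those shares. TGS1, which trimethylates the caps of U3 and other small RNAs, had 300.5, 348 and 423 normalised reads in methionase cells, against 834, 895 and 782 in empty vector cells, and the groups did not overlap (-1.08 ± 0.08, adjusted p = 1.15e-09). TGS1 fell by 0.57 ± 0.08 with methionase under the drug and by 0.38 ± 0.08 with the drug alone (adjusted p = 9.83e-06 and 0.00079). DBR1, which opens the intron lariats from which snoRNAs are trimmed, fell by 0.33 ± 0.08 with methionase in DMSO and by 0.60 ± 0.08 under the drug (adjusted p = 0.00205 and 3.50e-06). MTREX, a helicase of the nuclear exosome, fell by 0.32 ± 0.06 and 0.27 ± 0.06 (adjusted p = 0.000131 and 0.00078). PHAX, an adaptor of small RNA transport, fell by 0.33 ± 0.08 and 0.36 ± 0.08 (adjusted p = 0.00265 and 0.0013). SSB, the La protein that binds new RNA ends, rose by 0.27 ± 0.08 and 0.29 ± 0.08 (adjusted p = 0.0135 and 0.00844).

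Several other RNAs, most of them without a poly-A tail, were also higher with methionase at 24 h. Of 57 tested H/ACA and scaRNA rows, which belong to the snoRNA class that guides pseudouridylation and to small RNAs of Cajal bodies, 48 rose and 0 fell with methionase in DMSO (median 0.66), 48 rose and 0 fell under the drug, and 19 rose and 0 fell with the drug alone. Over all 155 such rows the sums were 2935, 4970 and 3087 normalised reads in methionase cells in DMSO, against 931, 946 and 1376 in empty vector cells. Replication-dependent histone genes took 17430, 19250 and 11950 in methionase cells, against 3248, 3047 and 3034 in empty vector cells. With the drug alone they took 14390, 16560 and 17680, so that histone reads were 5.21 times the control in both treatments while the members were 4.38 and 1.91 times the control. The share of reads on both mitochondrial rRNAs was 1.49% ± 0.536 with methionase and 1.2% ± 0.193 with the drug alone, against 0.548% ± 0.0956 in empty vector cells in DMSO (SD, n = 3 each). In methionase replicate 2, which was highest for most members, it was 2.01%. This share also rose with time in empty vector cells in DMSO, from 0.24% ± 0.0453 at 12 h (SD, n = 3). The sum of the members at 24 h was 0.963 times that at 12 h in the same cells. RN7SK, a small RNA that regulates transcription elongation, had 43.8, 48.9 and 36.6 normalised reads in methionase cells, against 7.28, 6.51 and 9.23 in empty vector cells (0.78 ± 0.09, adjusted p = 1.45e-07). The list of such RNAs had 4 tested rows, namely both mitochondrial rRNAs, RN7SK and RN7SL1, and 3 rose in that comparison, all but RN7SL1. RN7SL1, an RNA of the signal recognition particle, had 20.3, 25.5 and 22.3 in methionase cells, against 17.3, 50.2 and 18.5 in empty vector cells, and the groups overlapped (-0.08 ± 0.15, adjusted p = 0.706). The part of poly-A selection or of tailed and unspliced transcripts in the members' differences was not tested.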

How the data were processed

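The deposited values are log2 values from a variance-stabilising transformation made by the authors; the lowest was 5.45. The submitters' processing notes list hg38 and the tools STAR 2.7.10b, featureCounts, limma and DESeq2 without their roles. Per the labels, libraries were poly-A selected and stranded by dUTP. The annotation, the strand setting and the handling of multi-mapping or overlapping reads are not given in the sources used here. Of 37097 lines 1 named no gene and took at most 0.0022% of a library's reads. Undoing the transformation gave whole reads for 100% of values within 0.01 read, with size factors of 0.892 to 1.098. Replicates differed by a chi-square of at least 2.52 per gene, so none was a copy.

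The 17755 genes with a mean at least 0.5 above the lowest value entered 1 limma fit (version 3.58.1, R 4.3.3) over all 6 groups, with a variance trend. Benjamini-Hochberg adjustment ran over these genes within each comparison. The fit was tested on simulated data. A host is the smallest longer gene holding a member on the same strand in GENCODE release 29. The 20 members absent from that release were placed by RefSeq GRCh38.p14. Their strand was not checked but taken from the host, where all genes holding them lay on 1 strand. The members, lists and naming rule were chosen with earlier results of these data known. The rule named the 10 members with most reads, the 8 largest called differences each way per comparison, the SNORD14 copies, SNORD3A, SNORD22, the rows at the threshold and members of the 6 leading hosts. Other members named, the direct comparison of methionase with the drug, and the 12 h choice of rows were picked after values were seen. Results on a few items are not reported here.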

Additional observations from a re-analysis of the deposited data

Results flagged for a closer look

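The differences below were singled out because the effect of methionase itself differed between 2 settings by a test of that difference (limma, 3 libraries per group). Between 24 h and 12 h in DMSO, the methionase difference was larger at 24 h by 1.70 log2 for SNORD14E, 1.67 for SNORD14D, 1.58 for SNORD28, 1.49 for SNORD58C, 1.47 for SNORD74, 1.28 for SNORD79, 1.22 for SNORD15A and 1.21 for SNORD80. SNORD14E, SNORD14D and SNORD15A passed the threshold on level only through methionase at 24 h, so their values are a description, as is that of SNORD134 below. All 3 methionase libraries at 24 h were above all 3 empty vector libraries in each of these 8. Between Vps34-IN1 and DMSO at 24 h, it was larger under the drug by 0.52 for SNORD49A, 0.48 for SNORD83A, 0.42 for SNORD55 and 0.41 for SNORD42A. It was smaller under the drug for SNORD19 (-0.49), SNORD144 (-0.40), SNORD134 (-0.35) and SNORD62B (-0.33). Of these last 8, all but SNORD49A lost their call under 6 or more of the alternatives tried.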

How the results depend on the processing

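No named difference changed sign under any alternative; of 783 alternative values of 50 named differences, 706 kept their call and 77 lost it, mostly in the interaction with Vps34-IN1. With the stricter filter, which leaves 52 members, methionase called 47 in DMSO, 47 under the drug and 42 against the drug alone, and the interaction with the drug 3. With only the groups compared, 3 members were called at 12 h, 8 for the drug in methionase cells and 3 in that interaction, which with no filter had 1. The causes were not tested, beyond the fewer members left by the stricter filter. Leaving out 1 library gave 77 to 86 members for methionase in DMSO, 79 to 87 under the drug, 0 at 12 h, 22 to 40 for the drug alone, 11 to 55 for the drug in methionase cells, 1 to 2 for time, 46 to 65 for the interaction with time, 2 to 14 for that with the drug and 55 to 74 for methionase against the drug. The ratio of summed reads was 3.47 without methionase DMSO replicate 2.

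Deviations from the group means had correlations of -0.31 to 0.16 between same-numbered libraries and of -0.415 to 0.358 between others. With 3 libraries per group this cannot show whether the numbers mark a shared culture or day. With the replicate number as a block the counts were 85, 84, 37, 32 and 0 for methionase in DMSO and under the drug, the drug alone, the drug in methionase cells and methionase at 12 h. They were 2, 60, 8 and 71 for time, the interactions with time and with the drug, and methionase against the drug. Few reads limit precision: 9 members had 10 or fewer raw reads over the 3 empty vector libraries at 24 h in DMSO.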
